A study of Arabidopsis thaliana with 12 samples.

Results

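Ribosome-bound mRNA of an eif4e mutant of Arabidopsis thaliana was compared with that of wild type, using every library labelled as ribosome-bound, 6 of the 12 in the series. The wild type group (3 libraries) was Columbia wild type, and the mutant group (3 libraries) was labelled eif4e in the same Columbia background. Both were whole seedlings 9 days old, grown at 22 °C in long days (16 h light, 8 h dark) and frozen at zeitgeber time 16 h, shortly before the lights went off. Ribosomes were pulled down with an antibody by a published immunopurification method, and the poly(A) RNA that came with them was sequenced with a stranded kit. The other 6 libraries were of total mRNA from the same genotypes, and they are used below only to set a ribosome-bound change beside the change in total mRNA. The allele of the mutant, the ribosome tag, its promoter and the cells in which it was active are not given in the sources used here, and neither is the origin of the replicates (separate cultures or not), so p-values measure the spread between these libraries, which may be technical.

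The factor eIF4E recognises the cap structure at the 5′ end of messenger RNA. Together with the scaffold eIF4G and the helicase eIF4A it forms the eIF4F complex, which brings the small ribosomal subunit to the message, and plants have a second such complex made of eIFiso4E and eIFiso4G. The amount of an mRNA recovered with ribosomes reflects both how much of it the seedling holds and what part of it is on ribosomes, so a change there can occur with or without one in total mRNA. Flowering and circadian rhythm stand in the title of the series, and both were among the gene groups examined.

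The 6 libraries held between 18585324 and 24673644 counts, and the median count over tested genes was 371 to 487 per library. Replicates of a group correlated by 0.975 to 0.990 in log2 counts scaled for depth, and libraries of different genotypes by 0.955 to 0.984. No marker of root, guard cell, phloem, shoot meristem or shoot epidermis on the lists was at 0 in all 6 libraries together. Zeros in single libraries were not counted. RPL18, the gene of the ribosomal protein that the cited purification method carries as a tag, stood at 6221, 6438 and 5703 FPKM in the wild type libraries and at 5299, 5576 and 5189 in the mutant libraries. The median of the other 18 cytosolic ribosomal protein genes examined was 234 FPKM in wild type, and the highest of them was at 389.96. FPKM is the count of fragments per gene length and library size, so it is a level per length. Values of single libraries are given below in the order replicate 1, 2 and 3.

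EIF4E1 (AT4G18040, listed in RefSeq as EIF4E), the gene after which the mutant is named, was lower in every mutant library. The wild type libraries stood at 71.8, 92.9 and 87.2 FPKM, those of the mutant at 12.3, 11.6 and 13.9 FPKM. The groups were far apart, and the mutant libraries were alike. The means were 84.0 ± 10.9 FPKM (SD, n = 3) and 12.6 ± 1.17 FPKM, a log2 change, mutant minus wild type, of -2.69 ± 0.13 (SE, edgeR's quasi-likelihood test, adjusted p = 3.8e-04). The exact two-sided permutation p of the mean FPKM was 0.1, the smallest that 3 libraries against 3 allow. EIF4E1 passed edgeR's test with any 1 of the 6 libraries left out. In total mRNA it was at 45.8, 44.0 and 44.2 FPKM in wild type and at 8.28, 24.2 and 8.29 in the mutant, where replicate 2 stood far above the other two libraries of its group. The cause was not tested, and results that use total mRNA are given with and without that library. The log2 change in total mRNA was -1.60 (adjusted p = 0.00828), and -2.299 without total mutant replicate 2 (adjusted p = 4.2e-05). The difference between the kinds of mRNA, -1.09, did not pass (adjusted p = 0.207), and without that library it came to -0.39 (adjusted p = 0.26). The counts are per gene, so they do not show which stretch of the gene the remaining reads came from.

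The other genes of cap-binding proteins did not pass in the comparison as made. EIFISO4E (listed as LSP1), which encodes the cap-binding subunit of the second complex, stood at 56.2, 63.97 and 60.2 FPKM in wild type and 56.5, 61.5 and 63.1 in the mutant, groups that overlapped almost wholly (log2 0.05 ± 0.09, adjusted p = 0.733). NCBP, which encodes a further cap-binding relative of eIF4E, was at 56.3, 50.4 and 52.7 FPKM in wild type and 54.4, 61.3 and 62.5 in the mutant (0.20 ± 0.08, adjusted p = 0.136). That pair of groups overlapped in 1 mutant library, and NCBP passed with length correction and replicate block together (0.27, adjusted p = 0.0458). EIF4E1B (8.20 ± 0.132 against 8.13 ± 0.734 FPKM) and eIF4E3 (3.07 ± 0.201 against 2.53 ± 0.560 FPKM), close relatives of EIF4E1 among which reads could have been split, had adjusted p = 0.875 and 0.396. In the exact permutation test of mean FPKM these 4 genes had p = 0.9 (EIFISO4E), 0.2 (NCBP), 0.9 (EIF4E1B) and 0.2 (eIF4E3).

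**Figure D1:**
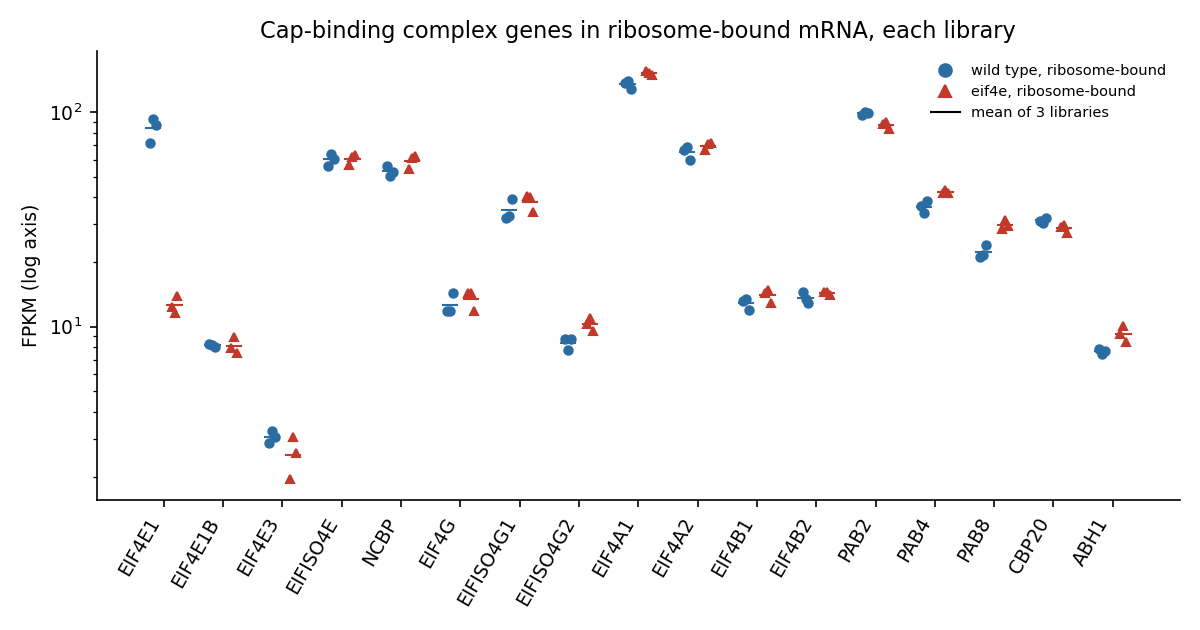
Level of each of the 17 cap-binding complex genes in ribosome-bound mRNA, in FPKM on a log axis, with 1 point per library (circles, wild type; triangles, eif4e) and a short line at each group's mean. EIF4E1 falls from a mean of 84.0 to 12.6 FPKM, while most of the other genes have groups that lie close together.

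Of the 17 cap-binding complex genes 3 rose and 1 fell, and their median log2 change was 0.14. Across all 18828 genes tested, 14.4% passed in either direction, 7.18% upward and 7.2% downward, with a median of 0.0032. PAB8, which encodes a poly(A)-binding protein that holds the tail of the message to eIF4G, was at 21.1, 21.6 and 24.1 FPKM in wild type and 28.5, 31.3 and 29.4 in the mutant. All mutant libraries were above all wild type libraries (0.46 ± 0.08, adjusted p = 0.0211). The scaffold gene eIFiso4G2 rose from 8.75, 7.76 and 8.76 to 10.3, 10.9 and 9.55 FPKM (0.33 ± 0.08, adjusted p = 0.0403), and ABH1, a subunit gene of the nuclear cap-binding complex, rose by 0.31 ± 0.08 (adjusted p = 0.0438). Its partner CBP20 had -0.08 ± 0.06 (adjusted p = 0.396). PAB4 had 0.27 ± 0.07 and passed with the replicate number as a block (adjusted p = 0.0513, with the block 0.0412). The members EIF4A1 (0.22 ± 0.08, adjusted p = 0.0986), EIF4A-2 (0.14 ± 0.09), EIF4B1 (0.16 ± 0.09), EIF4B2 (0.11 ± 0.08), EIF4G (0.13 ± 0.11), eIFiso4G1 (0.18 ± 0.11) and PAB2 (-0.15 ± 0.07) did not pass, with adjusted p up to 0.403. After a correction for gene length, described below, PAB8, eIFiso4G2 and ABH1 did not pass (adjusted p = 0.0527, 0.149 and 0.217) and PAB2 passed downward (-0.28, adjusted p = 0.0491); eIFiso4G2 and ABH1 also missed with library size alone as the scale (0.0686 and 0.0741), ABH1 with DESeq2 (0.0638) and eIFiso4G2 with upper-quartile scaling (0.0512). PAB8 did not pass without wild type replicate 1 or 2 or mutant replicate 1, ABH1 passed only without mutant replicate 3 among the 6 such fits, and eIFiso4G2 in none of them.

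Across the whole ribosome-bound transcriptome 2707 genes passed, 1351 of them higher and 1356 lower in the mutant. The larger changes were mostly downward: 283 of the genes that passed were at least 2-fold lower and 33 at least 2-fold higher. The FPKM ranges of the groups did not overlap for 38.6% of all genes tested and for 2703 of the 2707 that passed. The number of calls rests on replicate 1 of both genotypes. It was 14 without wild type replicate 1 and 29 without mutant replicate 1. Without wild type replicate 2 or 3 it was 399 and 2363, and without mutant replicate 2 or 3 it was 961 and 1762. All 2707 genes kept the sign of their log2 change in each of these 6 fits. Nearly all of them had groups that did not overlap, so this outcome was close to fixed in advance and nothing is read from it. With the replicate number as a block, 4639 genes passed, 2040 higher and 2599 lower, and 98.8% of the 2707 were among them in the same direction. Counts of list members that passed without 1 library are given below in the order wild type replicate 1, 2 and 3, then mutant replicate 1, 2 and 3. Each list count is to be read beside the 14.4% of all tested genes that passed, 7.18% upward and 7.2% downward. All lists were chosen with earlier results of these data known, so their counts and medians describe these data and are no independent evidence.

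The changes followed the length of the gene. When the tested genes were split into 10 equal classes by length, the median log2 change went from -0.32 in the shortest class (median length 569.8 bases) to 0.23 in the longest (3430.0 bases), rising at each step. Of the shortest class 12 genes rose and 356 fell, and of the longest 384 rose and 16 fell. Total mRNA had medians between -0.09 and 0.05 over the same classes and was lowest in the longest. The order held within genes of low, middle and high level, where the shortest class had medians of -0.39, -0.36 and -0.27 and the longest 0.24, 0.23 and 0.25. Set against the mean of the 6 ribosome-bound libraries, the longest class minus the shortest came to -0.29, -0.27 and -0.15 on the log2 scale in the wild type libraries and to 0.36, 0.33 and 0.04 in the mutant libraries. The groups did not overlap (exact permutation p = 0.1, the smallest possible), and mutant replicate 3 lay nearest to wild type. In total mRNA these values were 0.04, 0.09 and 0.04 in wild type and 0.02, -0.11 and -0.08 in the mutant. After each library's counts were corrected for a smooth trend with length, 648 genes were higher and 702 lower, and 41.0% of the 2707 passed again in the same direction. With length correction and replicate block together 3869 of the 18828 genes passed, 1712 higher and 2157 lower. The list counts given below for the block, alone or with the correction, include this general rise in calls. No source used here gives the RNA integrity, and the cause of the length pattern was not tested. Of 113 genes named by rule that passed, 44 missed with the length correction, and 28 of these passed again when the replicate block was added to it. The other 16 were eIFiso4G2, ABH1, LOS1, ELF4, AGL24, FPA, SPA1, PHOT2, SPA4, LSU2, LBD16, IAA30, H3c, ATML1, CHR5 and SAB. NCBP, PAB2 and GSTF12, which had not passed without either, passed with both.

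**Figure D2:**
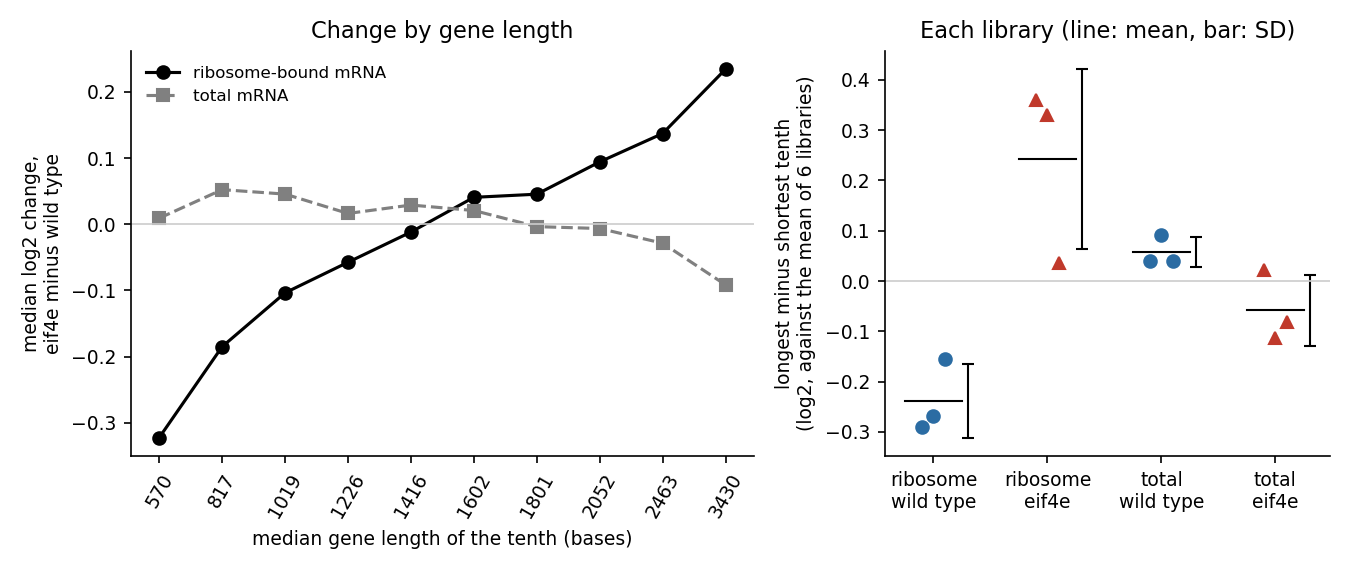
Left, median log2 change (mutant minus wild type) in 10 classes of gene length, in ribosome-bound mRNA (circles) and total mRNA (squares), where the ribosome-bound medians rise from -0.32 to 0.23. Right, the longest class minus the shortest in each library on the log2 scale, with the mean as a line and the SD as a bar, where the ribosome-bound wild type libraries sit below 0 and the mutant libraries above it.

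The lowest log2 changes among genes with a symbol included several genes of rapid stress and jasmonate responses. These and the highest changes below were chosen among genes that passed, with a mean of at least 5 FPKM and groups without overlap. The lack of overlap in them is therefore no result. Several of them met that mean only through the group where they are high. JAZ8, which encodes a repressor of jasmonate signalling that is itself induced by jasmonate, was at 38.4, 59.8 and 10.3 FPKM in wild type and 6.15, 4.48 and 1.33 in the mutant. The wild type libraries spread widely, and the lowest of them was above every mutant library (-3.17 ± 0.70, adjusted p = 0.0322). Its relative JAZ7 went the same way, from 56.2, 87.5 and 17.3 to 9.19, 10.1 and 3.91 FPKM (-2.77 ± 0.59, adjusted p = 0.0307). In both genes wild type replicate 2 was the highest library and replicate 3 the lowest of each genotype. ddf2 (-2.65 ± 0.57) and DDF1 (-1.94 ± 0.33), transcription factor genes of the CBF family of cold and salt responses, fell as well. DDF1 stood at 50.7, 71.2 and 28.9 FPKM in wild type and 13.8, 15.4 and 9.402 in the mutant.

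The lipid transfer protein gene LTP4 went from 104, 226 and 119 to 10.9, 38.1 and 25.1 FPKM (-2.57 ± 0.46, adjusted p = 0.0229). The groups did not overlap, though each varied more than 2-fold. The methionine sulfoxide reductase gene MSRB7 (-2.37 ± 0.49), SRO5 (-2.15 ± 0.58), the phytosulfokine precursor gene PSK2 (-2.11 ± 0.47) and the expansin-like gene EXLA3 (-1.95 ± 0.40) completed the group of protein-coding genes among the 12 lowest, beside EIF4E1. JAZ8, JAZ7, SRO5 and PSK2 missed with the length correction (adjusted p = 0.0590, 0.0546, 0.0648 and 0.0667). With the replicate block they passed at adjusted p between 4.0e-04 and 0.00441. None of the 12 but EIF4E1 passed without wild type replicate 1 or mutant replicate 1; JAZ8, JAZ7, ddf2, MSRB7, SRO5, PSK2 and EXLA3 passed only without wild type replicate 3.

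Primary transcripts of microRNAs were also among the lowest. MIR399d, of the family that targets the phosphate regulator PHO2, was at 16.1, 14.3 and 12.6 FPKM in wild type and 3.86, 2.297 and 2.205 in the mutant, and the groups were well apart (-2.31 ± 0.31, adjusted p = 0.0150). MIR397a, of a copper-responsive family that targets laccases, was at 12.3, 10.8 and 7.35 against 0.901, 2.15 and 0.412 FPKM (-3.06 ± 0.49, adjusted p = 0.0195). MIR399d and MIR397a met the rule of a mean of at least 5 FPKM only through wild type, where they are high. Their counts were low. MIR399d had 33, 36 and 24 in wild type and 8, 5 and 5 in the mutant, and MIR397a 27, 29 and 15 and 2, 5 and 1. Of the 40 microRNA genes with a symbol that passed the filter on low values 0 rose and 5 fell, and their median was -0.20; this group was put together after the values were seen. The other 3 were MIR162a (-0.65 ± 0.09), MIR857 (-2.93 ± 0.66) and MIR827 (-2.18 ± 0.59). MIR857 was at 1.17, 2.11 and 2.78 FPKM in wild type and 0, 0.366 and 0.351 in the mutant, and MIR827 at 5.63, 3.43 and 4.03 and 1.85, 0.442 and 0.424. Both passed the filter on low values only through wild type, where they are high, so nothing is read from the count of 5. These are short genes, with a median length of 137.45 bases, and with the length correction MIR399d (adjusted p = 0.0237) and MIR397a (0.0311) passed while MIR162a (0.0521), MIR857 (0.0633) and MIR827 (0.0852) did not. MIR827 also missed with DESeq2 (0.0920), upper-quartile scaling (0.0513) and no filter (0.0524), and MIR399d and MIR397a missed without wild type replicate 1 or mutant replicate 1.

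At the other end stood some markers of salicylate defence, while the 20 tested genes of the salicylate list, given below, ran from -1.82 to 1.73. PR1, the classic marker gene of that response, was at 129, 54.04 and 91.8 FPKM in wild type and 277, 358 and 249 in the mutant. All mutant libraries were above all wild type libraries (1.73 ± 0.29, adjusted p = 0.0208). PR2 (listed as BGL2), a beta-glucanase gene, went from 6.26, 6.16 and 7.305 to 14.2, 20.1 and 14.1 FPKM (1.33 ± 0.15), and PR5 rose by 1.09 ± 0.22. The thionin gene THI2.2 rose by 1.23 ± 0.32 (adjusted p = 0.0464) but missed with library size alone (0.0518) and without any 1 of the 6 libraries. ESM1, which acts in the breakdown of glucosinolates, went from 77.7, 115 and 67.6 to 203, 160.2 and 194 FPKM (1.14 ± 0.21).

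NDA1, an alternative NADH dehydrogenase gene of mitochondria, was higher in the mutant and steady within each genotype. It stood at 5.87, 4.75 and 5.51 FPKM in wild type and 11.9, 11.9 and 11.1 in the mutant (1.15 ± 0.10, adjusted p = 0.00515). ARP9, an actin-related protein gene, went from 4.42, 4.23 and 4.39 to 9.78, 9.13 and 9.08 FPKM (1.14 ± 0.08, adjusted p = 0.00238). These 2 genes passed with any 1 library left out. In total mRNA NDA1 had 1.23 and ARP9 1.02, and the difference passed for neither (edgeR's interaction test, adjusted p = 0.864 and 0.537). The clock-related gene RVE1 (1.18 ± 0.19), the cytokinin response regulator gene RR16 (1.17 ± 0.26), the cellulose synthase-like gene CSLB03 (1.05 ± 0.09), the ferric reductase gene FRO6 (0.96 ± 0.21) and CIA2 (0.90 ± 0.08), a regulator of chloroplast protein import and translation genes, made up the rest of the 12 highest. FRO6 missed with the length correction (adjusted p = 0.0606). CSLB03 and CIA2 missed only without wild type replicate 1, while PR1, PR2, PR5, RVE1, RR16, ESM1 and FRO6 missed without wild type replicate 1 and without mutant replicate 1, PR5 also without wild type replicate 2 or mutant replicate 2 or 3, RR16 and FRO6 also without wild type replicate 2 or mutant replicate 3, and ESM1 also without mutant replicate 3.

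**Figure D3:**
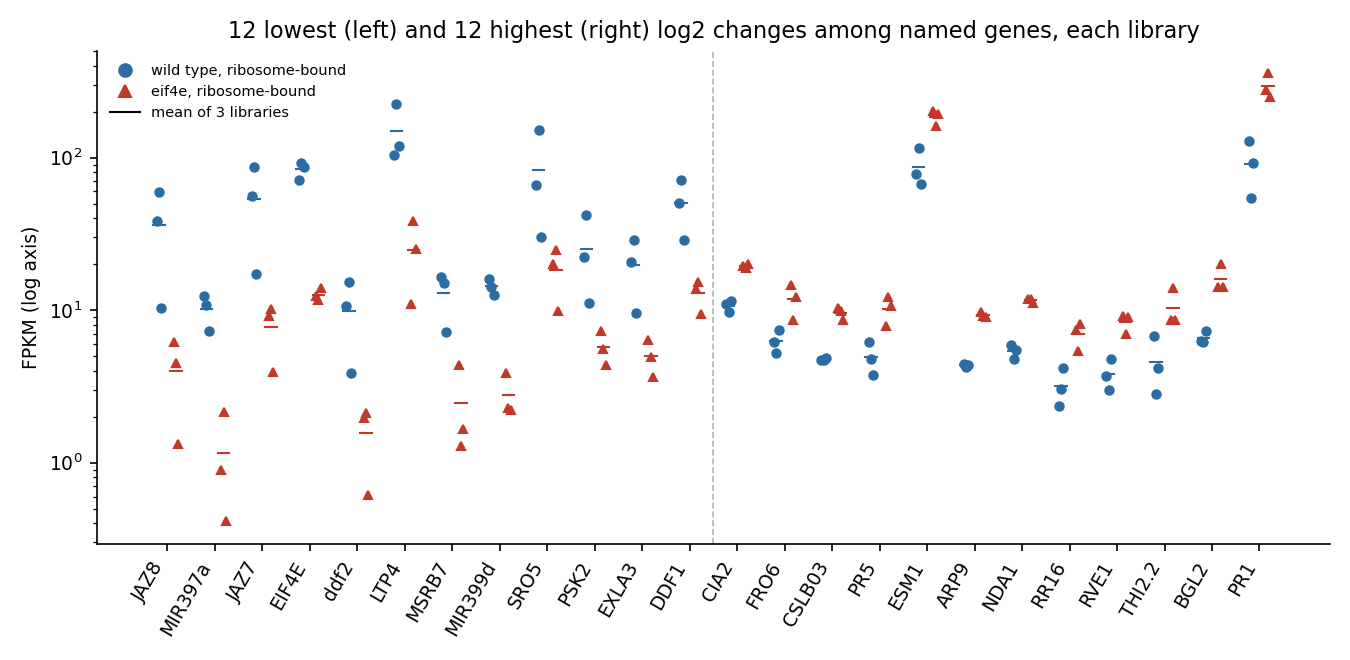
Level in each library, in FPKM on a log axis, of the 12 genes with the lowest and the 12 with the highest log2 changes among named genes (circles, wild type; triangles, eif4e; short lines, group means). Groups that do not overlap were a condition for choosing the 24 genes. The wild type libraries of genes such as JAZ8 and SRO5 spread several-fold.

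The genes of photosynthesis and chlorophyll synthesis that passed were all higher on ribosomes in the mutant. Of 18 tested genes of chlorophyll synthesis and its regulators 11 rose and 0 fell, with a median log2 change of 0.55. CRD1, which encodes a subunit of the cyclase that forms the fifth ring of chlorophyll, went from 296, 262 and 319.96 to 490.5, 475 and 514 FPKM. The lowest mutant library was far above the highest of wild type (0.80 ± 0.10, adjusted p = 0.0150). PORB, a protochlorophyllide reductase gene, was at 156, 135 and 175 FPKM in wild type and 251, 245 and 274 in the mutant (0.77 ± 0.11). The genes of chlorophyllide a oxygenase (CH1, 0.71 ± 0.11) and divinyl reductase (PCB2, 0.66 ± 0.08) rose with them, as did GNC (0.56 ± 0.11), a GATA factor gene that promotes greening. These 5 passed with the length correction, at adjusted p up to 0.0347. In total mRNA their log2 changes were 0.40 (PCB2) to 0.78 (CRD1). The difference between the kinds of mRNA passed for none of them (edgeR's interaction test, adjusted p from 0.206 to 0.972). Without 1 library, in the order above, 0, 4, 12, 0, 11 and 7 members rose.

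Light-harvesting genes encode the proteins that bind chlorophyll around the photosystems, and 5 of 21 rose and 0 fell, with a median of 0.39. CAB2 (LHCB1.1) was at 18.7, 13.2 and 20.7 FPKM in wild type and 30.3, 27.9 and 36.03 in the mutant (0.89 ± 0.17, adjusted p = 0.0261). CAB3 (LHCB1.2) had 0.84 ± 0.19, LHCB2.1 0.76 ± 0.14, LHCB2.2 0.58 ± 0.14 and LHCB4.2 0.55 ± 0.15. In total mRNA the log2 changes of these 5 genes were 0.59 (LHCB2.2) to 1.24 (CAB3). The difference between the kinds of mRNA passed for none of them (edgeR's interaction test, adjusted p from 0.540 to 0.990). The groups did not overlap for 12 of the 21 genes, all of them higher in the mutant, beside 38.6% of all genes tested. With the replicate block 13 rose, and with block and length correction together 18. LHCB4.2 missed with the length correction (adjusted p = 0.0546) and with library size alone (0.0581), median-ratio (0.0515) and upper-quartile scaling (0.0617). In the order above, 0, 0, 4, 0, 3 and 0 members rose without 1 library. Members of the LHCB1 and LHCB2 families are nearly identical, so their reads may have been split between them.

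Of 33 genes of photosystem cores, electron transport and Rubisco 4 rose and 0 fell, with a median of 0.31. Of all genes tested 14.4% passed in either direction, 7.18% upward. DRT112, a plastocyanin gene, went from 2429, 2316 and 2660.5 to 3764, 3115 and 3991 FPKM (0.60 ± 0.13, adjusted p = 0.0298). The Rubisco small subunit genes RBCS2B (0.68 ± 0.18) and RBCS3B (0.55 ± 0.15) and the Rubisco activase gene RCA (0.52 ± 0.13) rose too. In total mRNA the log2 changes of these 4 genes were 0.46 (RCA) to 0.70 (RBCS2B). The difference between the kinds of mRNA passed for none of them (edgeR's interaction test, adjusted p from 0.905 to 0.993). With the block 19 rose, with the length correction 12 and with both 29. RCA missed with the length correction (adjusted p = 0.0813) and upper-quartile scaling (0.0561), RBCS2B with upper-quartile scaling (0.0537), and RBCS3B with library size alone (0.0504), median-ratio (0.0515), upper-quartile scaling (0.0614) and no filter (0.05003). Without 1 library 0, 0, 2, 0, 6 and 0 rose.

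The chloroplast has ribosomes of its own. Of 17 nuclear genes of plastid ribosomal proteins 4 rose and 0 fell, and all 17 had log2 changes above 0, from 0.15 to 0.44. RPL15 was at 286, 299 and 329 FPKM in wild type and 410.04, 377 and 416 in the mutant (0.44 ± 0.09, adjusted p = 0.0302). RPL4 (0.42 ± 0.11), PSRP2 (0.37 ± 0.10) and PRPL11 (0.32 ± 0.08) were the others that rose. The number rose to 10 with the block, to 12 with the length correction and to 17 with both. RPL4 missed with the length correction (adjusted p = 0.0511) and upper-quartile scaling (0.0538), and PSRP2 and PRPL11 with library size alone (0.0509 and 0.0514) and upper-quartile scaling (0.0584 and 0.0540). Leaving out 1 library gave 0, 0, 2, 0, 4 and 0.

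Light receptors and their signalling partners formed a further group in which 6 of 32 rose and 0 fell, with a median of 0.26. PHOT1, a blue-light receptor gene of phototropism, stood at 54.1, 51.9 and 58.9 FPKM in wild type and 79.4, 74.5 and 76.5 in the mutant, with every mutant library above every wild type library (0.52 ± 0.08, adjusted p = 0.0188). PHYB, the main red-light receptor gene of grown seedlings, rose by 0.55 ± 0.11 and PHOT2 by 0.43 ± 0.09. SPA1 (0.39 ± 0.08) and SPA4 (0.35 ± 0.09), partners of the ubiquitin ligase COP1, rose as well. The members are long genes, with a median length of 2045 bases, and with the length correction 1 of the 32 passed: PHOT1, PHYB, PHOT2, SPA1 and SPA4 had adjusted p = 0.0611, 0.0546, 0.505, 0.161 and 0.131. SPA4 also missed with library size alone (0.0653). With the block 14 rose, with block and length correction 4, and without 1 library 0, 0, 7, 0, 1 and 6.

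**Figure D4:**
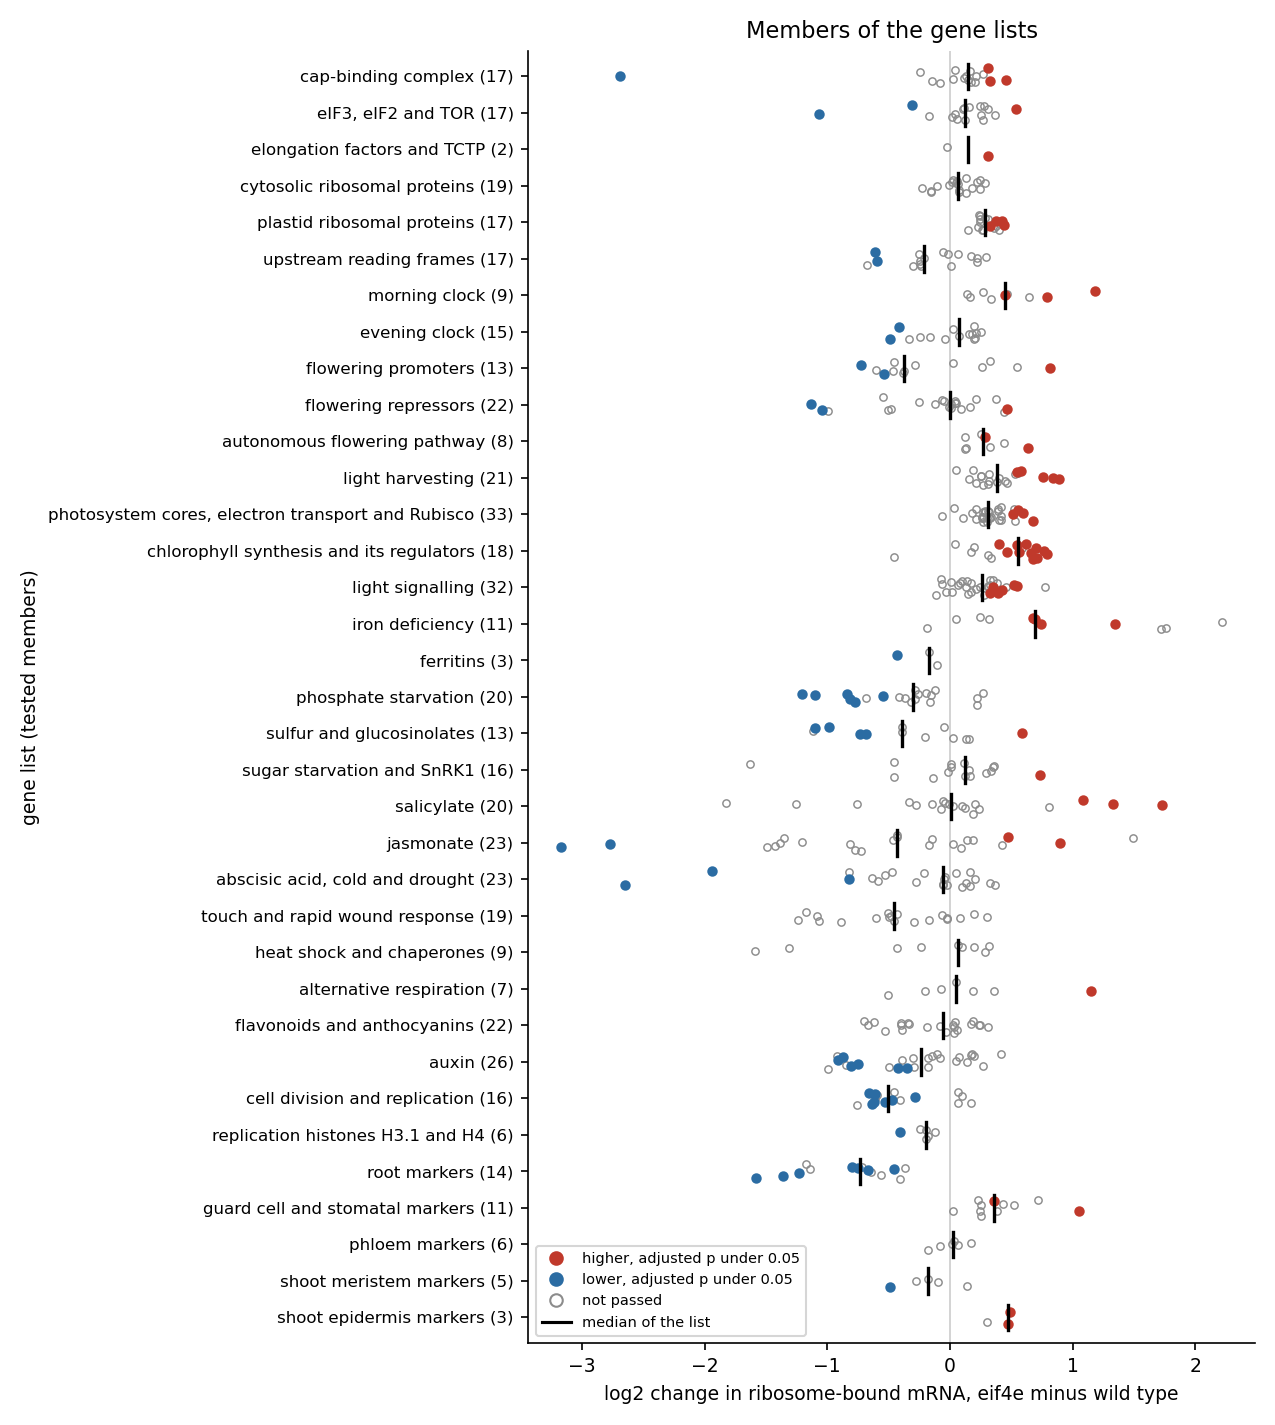
Log2 change in ribosome-bound mRNA (mutant minus wild type) of every tested member of the 35 gene lists, with members that passed filled (red, higher; blue, lower), others open, and a black line at each list's median. Chlorophyll, light-harvesting and iron deficiency genes lie mostly above 0, and root marker, cell division, phosphate and jasmonate genes mostly below.

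Cytosolic translation was examined through ribosomal proteins, initiation and elongation factors. Of 19 cytosolic ribosomal protein genes 0 passed in edgeR's test, with a median of 0.07, against 2 that rose with the block, 3 with the length correction and 7 with both. In total mRNA 15 of these 19 rose and 1 fell, with a median of 0.36, and without total mutant replicate 2 it was 12 and 1. Leaving out any other total library gave 10 to 14 higher. RPL10A (listed as SAC52) was at 399.7, 382 and 389 FPKM in wild type and 351, 413 and 422 in the mutant, with overlapping groups (0.06 ± 0.09). RPL18 had -0.15 ± 0.09 on ribosomes (adjusted p = 0.275). It was the 1 member that fell in total mRNA (-0.28 ± 0.07, adjusted p = 0.0216). The cited purification method tags this protein, and reads of a tagged copy were not told apart from those of the plant's own gene. Of 17 genes of eIF3, eIF2 and TOR signalling 1 rose and 2 fell. EIF3A, the largest subunit gene of the eIF3 complex that holds the small ribosomal subunit, rose from 14.9, 14.01 and 17.43 to 21.8, 25.2 and 18.3 FPKM (0.54 ± 0.12). S6K2, a kinase gene downstream of TOR, fell from 50.2, 69.8 and 35.6 to 29.3, 26.8 and 16.4 FPKM (-1.07 ± 0.29), and LST8-1, a TOR partner gene, fell too (-0.31 ± 0.08). TOR itself had 0.31 ± 0.09 (adjusted p = 0.0602), and with the block the counts were 4 higher and 2 lower. EIF3A, S6K2 and LST8-1 missed with the length correction (adjusted p = 0.0762, 0.0532 and 0.0515), LST8-1 also with no filter (0.0531), and the 17 gave 0, 0, 2, 0, 0 and 2 higher and 0, 0, 1, 0, 0 and 1 lower members without 1 library. Of the genes of elongation factors and TCTP, 2 in number, the elongation factor 2 gene LOS1 rose by 0.31 ± 0.08 (adjusted p = 0.0473); it missed with the length correction (0.233), with each of the 3 other scalings (0.0501 to 0.0744), with no filter (0.0536) and without any 1 of the 6 libraries.

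Some genes carry conserved upstream reading frames, short coding stretches ahead of the main one that limit its translation. Beside 14.4% of all genes tested that passed (7.2% downward), 0 of 17 such genes rose and 2 fell, with a median of -0.21. Both were genes of bZIP transcription factors whose translation sucrose represses. bZIP44 fell from 27.9, 31.4 and 25.7 to 19.5, 18.2 and 17.02 FPKM (-0.60 ± 0.10, adjusted p = 0.0211) and BZIP53 from 118, 127 and 92.9 to 70.8, 84.1 and 61.7 FPKM (-0.61 ± 0.15). The groups were apart in both, and BZIP53 missed with the length correction (adjusted p = 0.0606). With the block 1 rose and 4 fell, with block and length correction 0 and 7, and without 1 library 0, 0, 3, 0, 2 and 1 fell.

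At zeitgeber time 16 h, the end of a long day, morning genes of the clock are near their trough, while evening genes are generally high or declining. Of 9 tested morning genes 3 rose and 0 fell, with a median of 0.45; another 4 listed genes were below the filter of 1 FPKM. RVE1, which encodes a MYB-like factor that links the clock to auxin, was at 3.69, 2.999 and 4.82 FPKM in wild type and 9.201, 6.996 and 8.97 in the mutant. Every mutant library was above every wild type library (1.18 ± 0.19, adjusted p = 0.0195). CCA1, a core clock repressor gene, was at 1.31, 1.49 and 1.43 against 2.04, 2.55 and 2.54 FPKM (0.79 ± 0.15, adjusted p = 0.0248), at low levels near the filter. RVE8, a clock activator gene, rose by 0.45 ± 0.10. LHY, the partner of CCA1, had 0.33 ± 0.09 (adjusted p = 0.0536), with groups that did not overlap (2.76, 2.49 and 2.79 against 3.18, 3.44 and 3.23 FPKM). The 3 that rose also passed with the length correction, at adjusted p up to 0.0491. Without 1 library 0, 1, 2, 0, 1 and 2 morning genes rose.

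Of 15 evening genes 0 rose and 2 fell, while 14.4% of all genes tested passed (7.2% downward). BOA, a homologue of the evening complex factor LUX, was at 31.9, 32.9 and 30.7 FPKM in wild type and 22.1, 21.6 and 22.5 in the mutant, well apart (-0.49 ± 0.07, adjusted p = 0.0173). ELF4, a subunit gene of the evening complex, was at 186, 185 and 174 FPKM against 136, 127 and 136 (-0.41 ± 0.08, adjusted p = 0.0260). ELF4 is a short gene and missed with the length correction (-0.14, adjusted p = 0.264). TOC1, which represses CCA1 and LHY, was at 35.6, 33.2 and 33.9 and 37.01, 37.1 and 31.2 FPKM (0.08 ± 0.09), and GI, which joins the clock to flowering, at 2.37, 1.98 and 2.07 and 1.93, 2.57 and 1.58 FPKM (-0.04 ± 0.17). Both overlapped between genotypes and did not pass (adjusted p = 0.563 and 0.887). The median of the 15 was 0.08, the block gave 0 higher and 3 lower, and without 1 library 0, 1, 2, 0, 1 and 2 fell.

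Among the promoters of flowering 1 of 13 tested genes rose and 2 fell, and 4 listed genes were below the filter. FT, which encodes the florigen that leaves move to the shoot apex, was at 7.54, 5.76 and 8.03 FPKM in wild type and 4.51, 3.98 and 4.02 in the mutant. The lowest wild type library was above the highest mutant library (-0.72 ± 0.16, adjusted p = 0.0335). AGL24, a MADS-box gene that acts with SOC1, fell too (-0.54 ± 0.15, adjusted p = 0.0496). CIB1, whose product binds cryptochrome and activates FT, rose from 13.8, 9.02 and 11.7 to 20.8, 21.7 and 16.7 FPKM (0.82 ± 0.16). SOC1 (listed as AGL20) had -0.46 ± 0.18 (adjusted p = 0.111), with mutant replicate 2 inside the wild type range (19.9, 15.6 and 20.4 against 10.3, 16.9 and 12.3 FPKM). CO, the photoperiod activator of FT, had 0.33 ± 0.14 (adjusted p = 0.130). FT and AGL24 missed with the length correction (adjusted p = 0.0795 and 0.0979), and with the block added FT passed (-0.56, adjusted p = 0.0435) and AGL24 did not (0.0860). AGL24 missed also with DESeq2 (0.0556) and no filter (0.0600), and the list gave 0, 0, 1, 0, 0 and 1 higher and 0, 1, 0, 0, 0 and 0 lower genes without 1 library.

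FLC, the MADS-box repressor that acts against FT and SOC1, was also lower. It stood at 8.53, 6.97 and 7.58 FPKM in wild type and 3.44, 4.14 and 3.31 in the mutant, and the groups were well apart (-1.04 ± 0.14, adjusted p = 0.0150). Its relative MAF5 was at 1.91, 1.48 and 1.66 against 0.629, 0.771 and 0.822 FPKM (-1.13 ± 0.22, adjusted p = 0.0262). MAF5 passed the filter on low values only through wild type. CDF2, which represses CO, rose by 0.47 ± 0.10. Of the 22 repressors these 3 passed, beside 14.4% of all genes tested. The list median was 0.00, and with the block 2 rose and 4 fell. Among 8 genes of the autonomous pathway, which lowers FLC, FLD rose from 3.24, 3.99 and 4.11 to 6.16, 6.01 and 4.98 FPKM (0.63 ± 0.13, adjusted p = 0.0272) and FPA by 0.28 ± 0.07. With the length correction FLC (-0.96, adjusted p = 0.0230), MAF5 (0.0375) and FLD (0.0494) passed and CDF2 (0.0545) and FPA (0.745) did not; FPA also missed with DESeq2 (0.0631) and library size alone (0.0562). Without 1 library 0, 1, 2, 0, 1 and 3 repressors fell and 0, 0, 2, 0, 0 and 0 rose, and 0, 0, 1, 0, 0 and 2 autonomous genes rose.

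The iron deficiency genes that passed were all higher in the mutant. Of 11 tested members 4 rose and 0 fell, and the median was 0.70. OPT3, a transporter gene that moves iron in the phloem, was at 28.7, 26.3 and 32.99 FPKM in wild type and 51.8, 41.9 and 49.6 in the mutant (0.75 ± 0.12, adjusted p = 0.0198). BTS, a ubiquitin ligase gene that restrains the response, was at 8.67, 8.77 and 10.5 against 14.9, 14.8 and 13.8 FPKM (0.68 ± 0.09, adjusted p = 0.0150). The groups were apart in both. BHLH101, a regulator of iron uptake genes, had 1.34 ± 0.30 at low levels, and the nicotianamine synthase gene NAS4 0.70 ± 0.15. Of 3 ferritin genes, which encode the iron store, FER1 fell from 328, 335 and 310.4 to 234, 237 and 231 FPKM (-0.43 ± 0.08, adjusted p = 0.0233). These 5 genes passed with the length correction at adjusted p up to 0.0363. In total mRNA OPT3 had 0.88, BTS 0.38, BHLH101 1.45, NAS4 0.92 and FER1 -0.41. The difference between the kinds of mRNA passed for none of them (edgeR's interaction test, adjusted p from 0.131 to 0.963). With the block 7 iron deficiency genes rose, and without 1 library 0, 1, 5, 0, 6 and 2 rose and 0, 0, 1, 0, 1 and 1 ferritin genes fell.

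The phosphate starvation genes that passed were all lower in the mutant. Of 20 tested 0 rose and 6 fell, with a median of -0.30. The groups did not overlap for 14 genes, 13 of them lower in the mutant, beside 38.6% of all genes tested. AT4, a non-coding RNA that sequesters miR399, was at 554, 496 and 394 FPKM in wild type and 237, 184 and 186 in the mutant. The groups were well apart (-1.21 ± 0.16, adjusted p = 0.0152). Its close relative IPS1 went from 46.9, 38.5 and 32.4 to 21.3, 17.5 and 14.8 FPKM (-1.10 ± 0.18). MGD2, which makes galactolipid in place of phospholipid, was at 43.8, 45.8 and 47.4 against 26.2, 23.4 and 24.7 FPKM (-0.84 ± 0.08, adjusted p = 0.00935). The phosphatase gene PECP1 (listed as PEPC1, -0.82 ± 0.15) and the SPX-domain phosphate signalling gene SPX3 (-0.78 ± 0.13) fell too. IPS1 missed with the length correction (adjusted p = 0.0569), while the list as a whole gave 8 lower members with it, 11 with the block and 14 with both. Without 1 library 0, 4, 8, 1, 5 and 5 fell.

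Of 13 sulfur and glucosinolate genes 1 rose and 4 fell, with a median of -0.39. LSU1, a marker of low sulfur, was at 163, 145 and 143 FPKM in wild type and 87.3, 59.8 and 57.7 in the mutant (-1.10 ± 0.17, adjusted p = 0.0182). Mutant replicate 1 was the highest of its group and still well below wild type. LSU2 (-0.69 ± 0.17), ATSDI1 (-0.73 ± 0.18) and the glutathione-degrading enzyme gene GGCT2-1 (-0.99 ± 0.23) fell too, whereas APR2, which reduces activated sulfate, rose from 93.9, 96.5 and 111 to 172, 146 and 122 FPKM (0.59 ± 0.13). With the length correction LSU1, LSU2, ATSDI1 and GGCT2-1 missed (adjusted p = 0.0562, 0.234, 0.0771 and 0.0735). The block gave 1 higher and 7 lower, and 0, 1, 3, 2, 1 and 1 fell without 1 library, where LSU1 missed only without wild type replicate 1; 0, 0, 1, 0, 0 and 1 rose. Of 16 sugar starvation genes SAG29, a sucrose transporter gene of the SWEET family, alone rose (0.73 ± 0.20, adjusted p = 0.0496), and it missed with the length correction (0.0639), with the 3 other scalings (0.0512 to 0.0593) and without any 1 library; the block gave 2 higher and 1 lower.

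The jasmonate list was divided. Of 23 genes 2 rose and 2 fell, with a median of -0.43. Beside the repressors JAZ7 and JAZ8, which fell, the genes of jasmonate synthesis LOX2 and AOC2 rose. LOX2 was at 99.4, 89.8 and 112 FPKM in wild type and 185, 196 and 166 in the mutant, clearly apart (0.90 ± 0.10, adjusted p = 0.0137), and AOC2 had 0.48 ± 0.11. With the block 2 rose and 12 fell, with both corrections 2 and 13, and without 1 library 0, 1, 1, 0, 1 and 2 rose and 0, 0, 10, 0, 1 and 0 fell. Of 23 genes of abscisic acid, cold and drought 0 rose and 3 fell: ddf2, DDF1 and GolS2, a galactinol synthase gene of drought tolerance (-0.82 ± 0.13, adjusted p = 0.0200). The block gave 7 lower there, and without 1 library 0, 2, 5, 0, 2 and 2 fell. Of 20 salicylate genes PR1, PR2 and PR5 rose and 0 fell, with a median of 0.01. With the block 3 rose and 3 fell, and without 1 library 0, 2, 3, 0, 2 and 2 rose and 0, 0, 2, 0, 0 and 0 fell. Over all genes tested 14.4% passed in the main comparison, 7.18% upward and 7.2% downward, shares that belong beside the counts of these lists.

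Touch and rapid wound response genes had a median of -0.45, yet 0 of 19 passed in edgeR's test, while 10 fell with the block. DESeq2 gave 0 higher and 1 lower. TCH2, a calmodulin-like gene, was at 658, 964 and 579 FPKM in wild type and 617, 668 and 626 in the mutant, with overlapping groups (-0.17 ± 0.19). CAF1a, a deadenylase gene, overlapped too (-0.02 ± 0.13). Of 9 heat shock and chaperone genes 0 passed in edgeR's test and 0 with DESeq2, with HSP70 at 0.29 ± 0.17 and BIP2 at 0.20 ± 0.11, and 1 fell with the block. Of 22 flavonoid genes 0 passed and 6 fell with the block, while DESeq2 gave 0 higher and 2 lower. The chalcone synthase gene TT4 was at 0.03 ± 0.12, and GSTF12, which carries anthocyanin to the vacuole, had -0.70 ± 0.24 (adjusted p = 0.0819, with the block 0.0107). Of 7 alternative respiration genes NDA1 alone rose. At an unadjusted p under 0.05 in edgeR's test, 4 touch genes, 0 heat shock genes, 7 flavonoid genes and 4 cytosolic ribosomal protein genes passed. Of all 18828 genes tested 6700 did, a larger share than in any of these 4 lists.

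The root markers that passed were all lower on ribosomes of the mutant. Of 14 tested 0 rose and 7 fell, the median was -0.74 and every one had a log2 change below 0; 8 more were under the filter. BGLU22, a beta-glucosidase gene of roots, was at 14.3, 12.3 and 12.03 FPKM in wild type and 4.31, 3.86 and 4.41 in the mutant with little spread within a group (-1.58 ± 0.11, adjusted p = 0.00238). BGLU21, which is close to it in sequence, had -1.23 ± 0.21. The thalianol synthase gene THAS1 (-1.36 ± 0.31), the endodermal peroxidase gene PER64 (-0.75 ± 0.16) and the Casparian strip gene CASP1 (-0.67 ± 0.12) fell too. The summed level of all 22 markers was 1777, 1738 and 1938 FPKM in the wild type libraries, above the 1429, 1159 and 1455 FPKM of the mutant. In total mRNA 8 of the 19 tested there fell, with a median of -0.54, and 6 without total mutant replicate 2. Leaving out any other total library gave 5 to 9. In whole seedlings, fewer cells of a type and less RNA per cell cannot be told apart. BGLU22 passed with any 1 library left out, CASP1 missed with the length correction (adjusted p = 0.0616), and 1, 1, 5, 1, 4 and 5 markers fell without 1 library.

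The auxin and cell division genes that passed were all lower, like the root markers that passed, and the part of root tissue in their change was not tested. Of 26 auxin genes 0 rose and 6 fell, with a median of -0.24. GH3.5 (listed as WES1), which conjugates auxin to amino acids, was at 24.2, 22.3 and 22.4 FPKM in wild type and 13.2, 14.2 and 12.5 in the mutant (-0.75 ± 0.07, adjusted p = 0.00951). IAA19, an auxin-induced repressor gene, was at 16.01, 15.4 and 12.2 against 7.55, 7.2005 and 7.77 FPKM (-0.91 ± 0.13). The groups were apart in both. LBD16 (-0.81 ± 0.20), which acts in lateral root formation, and IAA30 (-0.87 ± 0.22) fell too. With the block 10 fell, and without 1 library 0, 2, 3, 0, 4 and 3 fell and 0, 0, 0, 0, 0 and 1 rose. LBD16 and IAA30 missed with the length correction (adjusted p = 0.0662 and 0.114) and DESeq2 (0.0680 and 0.0996), and IAA30 with no filter (0.0503).

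Of 16 cell division and replication genes 0 rose and 7 fell, with a median of -0.50. CDKB2;2, a mitotic kinase gene, was at 13.2, 13.01 and 12.5 FPKM in wild type and 8.697, 6.43 and 9.37 in the mutant (-0.62 ± 0.15, adjusted p = 0.0396). Wild type was uniform, and mutant replicate 2 was the lowest library. The mitotic cyclin genes CYCB1;4 (-0.66 ± 0.16) and CYCB1;1 (-0.61 ± 0.16), the cytokinesis syntaxin gene SYP111 (-0.53 ± 0.14) and PCNA1, the sliding clamp gene of replication (-0.47 ± 0.12), fell too. Of 6 replication histone genes H3c fell (-0.41 ± 0.11). With the length correction 2 of the 16 passed, with the block 10, and without 1 library 0, 0, 0, 0, 0 and 5. CDKB2;2, CYCB1;1, SYP111, PCNA1 and H3c had adjusted p = 0.0593, 0.0506, 0.0746, 0.0811 and 0.181 with the length correction. CYCB1;1 missed also with DESeq2 (0.0538) and no filter (0.0501), PCNA1 with no filter (0.0524), and H3c with upper-quartile scaling (0.0503), no filter (0.0507) and all 12 libraries in the fit (0.0575).

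Markers of shoot cell types were mixed. Of 11 guard cell and stomatal lineage markers 2 rose and 0 fell, with a median of 0.36. TMM, a receptor-like protein gene of stomatal patterning, was at 2.31, 2.2004 and 2.87 FPKM in wild type and 5.07, 4.401 and 5.39 in the mutant (1.06 ± 0.15, adjusted p = 0.0170). ICE1, also known as SCRM, a partner of the stomatal fate factors, had 0.36 ± 0.07. The summed level of the 13 markers was 56.2 to 61.9 FPKM in wild type and 69.8 to 82.3 FPKM in the mutant. The shoot epidermis genes PDF2 (0.49 ± 0.10) and ATML1 (0.48 ± 0.12) rose, 2 of 3 listed, but missed with the length correction (adjusted p = 0.0643 and 0.125), and ATML1 with library size alone (0.05001). Of 5 tested shoot meristem markers KNAT1 fell from 20.7, 16.6 and 19.7 to 13.02, 13.04 and 13.4 FPKM (-0.49 ± 0.09, adjusted p = 0.0250). Of 6 phloem markers 0 passed in edgeR's test (0 with DESeq2, 0 at an unadjusted p under 0.05), with SUC2 at 0.03 ± 0.11 and PP2-A1 at 0.07 ± 0.09. Summed levels were 336 to 375 against 339 to 369 FPKM for phloem, 44.5 to 50.2 against 38.4 to 40.9 for meristem and 140.0 to 151 against 173 to 192 for epidermis. Without 1 library 0, 1, 2, 0, 2 and 3 guard cell and 0, 0, 2, 0, 0 and 1 epidermis markers rose, and 0, 1, 1, 0, 0 and 1 meristem markers fell.

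A change on ribosomes can be set beside that in total mRNA from the same genotypes. Of the 2707 genes that passed on ribosomes, 1015 passed in total mRNA in the same direction, which is 37.5% of the ribosome-bound and 31.2% of the 3254 total mRNA calls, and 46 passed in the opposite direction. Without total mutant replicate 2 the same-direction number was 831 of 2259 total mRNA calls, and without total mutant replicate 1 or 3 it was 700 and 671. Without total wild type replicate 1, 2 or 3 it was 619, 625 and 766. The difference between the changes was tested as an interaction over all 12 libraries. It passed for 772 of 19170 genes (4.03%), 321 with a higher and 451 with a lower change on ribosomes. With the length correction, an alternative chosen after seeing the data, 4 and 130 passed. Without 1 library, of either kind, the count ran from 161 without total mutant replicate 3 to 1607 without ribosome-bound mutant replicate 3, and it was 236 without total mutant replicate 2. Of the lists examined, that of 19 cytosolic ribosomal protein genes had 0 members with a higher and 5 with a lower change on ribosomes, with a median difference of -0.23, and 2 lower with the length correction.

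Several genes rose in total mRNA with no such rise on ribosomes. These genes and the long genes below were chosen by the smallest adjusted p of the interaction, so their passing it is no result. UBC8, a ubiquitin-conjugating enzyme gene, was at 174, 156 and 136 FPKM in ribosome-bound wild type and 131, 147 and 149.6 in the mutant, groups that overlapped (-0.09 ± 0.11, adjusted p = 0.612). In total mRNA its log2 change was 1.06 ± 0.10, and the difference was -1.14 (adjusted p = 0.00492). Its relative UBC28 (-0.07 ± 0.10 on ribosomes, 0.98 ± 0.09 in total mRNA) and ARFA1E, a small GTPase gene of vesicle traffic (-0.10 ± 0.10 and 0.96 ± 0.09), had the same pattern, with differences of -1.05 and -1.06. AGL26 went from 36.5, 35.5 and 35.5 to 26.8, 26.6 and 29.2 FPKM on ribosomes (-0.34 ± 0.08) while it rose by 0.85 ± 0.06 in total mRNA. UBP1A, an RNA-binding protein gene, likewise fell on ribosomes (-0.39 ± 0.08) and rose in total mRNA (0.37 ± 0.07). Without total mutant replicate 2 the differences of these 5 genes lay between -1.195 and -0.73 and passed (adjusted p up to 0.018). The 5 also passed the interaction with the length correction at adjusted p up to 0.00663. UBC8 and UBC28 belong to a family of near-identical genes, so the split of reads between them is uncertain.

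In the other direction stood long genes. CHR5, a chromatin remodeller gene, rose on ribosomes from 4.704, 4.698 and 5.13 to 6.28, 6.79 and 5.51 FPKM (0.39 ± 0.09) and had -0.18 ± 0.06 in total mRNA, a difference of 0.58 (adjusted p = 0.0106). SAB (0.37 ± 0.09 and -0.31 ± 0.08) rose on ribosomes as well. TOR (0.31 ± 0.09 and -0.31 ± 0.07) and the calcium pump gene ECA3 (0.16 ± 0.07 and -0.34 ± 0.06) fell in total mRNA and did not pass on ribosomes in the comparison of 6 libraries. In the fit of all 12 libraries, from which the total mRNA values come, TOR passed on ribosomes as well (0.32, adjusted p = 0.00997) and ECA3 did not (0.16, adjusted p = 0.0524). The 4 genes are between 3477 and 8414 bases long, and without total mutant replicate 2 their differences were 0.47 to 0.63 and passed. None passed the interaction with the length correction (adjusted p from 0.433 to 0.896). On ribosomes CHR5 missed with that correction (adjusted p = 0.427) and SAB had a log2 change of -0.0003; SAB also missed with library size alone (0.0658). On ribosomes CHR5, AGL26 and UBP1A missed without replicate 1 or 2 of either genotype, and SAB also without wild type replicate 3.

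**Figure D5:**
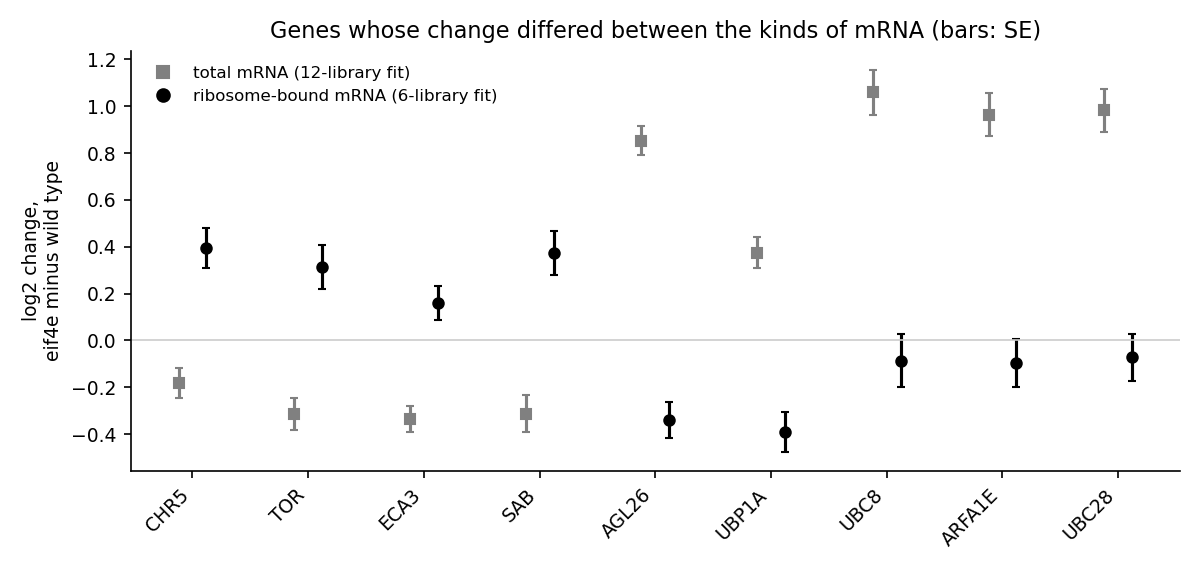
Log2 change (mutant minus wild type) with its SE in total mRNA (grey squares) and ribosome-bound mRNA (black circles) for 9 genes with the smallest adjusted p of the interaction among those reported. UBC8, ARFA1E and UBC28 lie near 1 in total mRNA and near 0 on ribosomes, and the 4 genes on the left lie higher on ribosomes.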

How the data were processed

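Per the submitters' processing notes, reads were aligned to TAIR10 with TopHat2 2.0.11; the counting program and its strand setting are not given in the sources used here, so a gene and an antisense partner cannot be told apart. The deposited tables hold the authors' raw read counts per gene and an FPKM computed from them, 3 libraries per group. Genes not listed in a table were set to 0 counts; this concerned 2042 genes, with at most 40 counts elsewhere. Symbols came from RefSeq (TAIR10.1), which matched 25710 of 25835 identifiers; lists matched 576 of 619 entries.

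Genes with a mean of at least 1 FPKM over the 6 libraries (18828) were tested on the deposited counts with edgeR 4.0.16 in R 4.3.3 (TMM scaling, glmQLFit and glmQLFTest, no block, 4 residual degrees of freedom, common dispersion 0.0201), two-sided, with Benjamini-Hochberg adjustment and a threshold of 0.05. SEs came from the log2 change and its F statistic. The interaction and the total mRNA changes came from a fit of all 12 libraries. Gene length was computed back from count and FPKM, and the length correction used a lowess trend (span 0.3). On simulated counts for the ribosome-bound comparison (18828 genes), 79% of 100 genes with a log2 change of 1 and 11% of 100 with 0.5 were recovered, with 6 false calls. All other genes were simulated without a change, a length trend or replicate pairing, so these shares need not hold for the data.

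Same-numbered replicates of the genotypes deviated together (correlations 0.197, 0.524 and 0.355). Other pairs had -0.462 to 0.243, the highest between wild type replicate 3 and mutant replicate 1. The numbers were therefore taken as pairs in the replicate block, a hint from the data and not from the labels. The main comparison did not use these pairs. A deposited sheet lists the same 6 index names under wild type and under the mutant, so libraries with the same index cannot have shared a pool. How libraries were pooled is not stated; if each genotype had its own pool or lane, genotype and pool cannot be told apart. Replicates of a group were not duplicates: their counts differed beyond sampling noise (lowest chi-square over degrees of freedom 10.9).

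Named genes were the cap-binding complex list, the 12 extreme genes in each direction by log2 change that have a symbol and passed, with a mean of at least 5 FPKM and groups that did not overlap, up to 5 members that passed per list (or up to 2 by level where none passed), FT, SOC1, CO, FLC, CCA1, LHY, TOC1 and GI, and up to 5 genes in each direction of the interaction. Some genes that these rules name are not reported here. MIR162a, MIR857 and MIR827 were added after their values were seen. The members and lists were chosen with earlier results of these data known, so list counts and medians are no independent evidence. Alternatives were DESeq2 1.42.0, other scalings, filters, the replicate block, the length correction, a fit of all 12 libraries and leaving out each library (for total mRNA values, chosen after seeing the data).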

Additional observations from a re-analysis of the deposited data

Results flagged for a closer look

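For 15 of the genes named above the log2 change between genotypes differed between ribosome-bound and total mRNA, by the interaction over 12 libraries (edgeR, adjusted p under 0.05). Each value below is the ribosome-bound change minus the total mRNA change.

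AGL26 (-1.19), UBC8 (-1.14), ARFA1E (-1.06), UBC28 (-1.05) and UBP1A (-0.76) changed less or the other way on ribosomes. They passed with any 1 of the 12 libraries left out (highest adjusted p = 0.0223) and with the length correction. PAB4 (-0.47) rose in total mRNA, passed with the length correction (adjusted p = 0.0067) and missed without total wild type replicate 1 or total mutant replicate 3 (highest adjusted p = 0.0634).

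SAB (0.69), TOR (0.63), CHR5 (0.58) and ECA3 (0.50) passed with any 1 library left out (highest adjusted p = 0.0407) and did not pass with the length correction, where their values lay between 0.06 and 0.20.

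MIR399d (-1.93) passed in 7 of 12 such fits and missed with the length correction (adjusted p = 0.0642); it missed without total wild type replicate 1 or 3, total mutant replicate 2, ribosome-bound wild type replicate 1 or ribosome-bound mutant replicate 2. SAC52 (-0.48), ELF4 (-0.40), FLD (0.64) and PHYB (0.52) passed in 2 of 12 fits each, missed without wild type replicate 1 or 2 of either kind among others (highest adjusted p = 0.124 over the 4 genes), and missed with the length correction (adjusted p from 0.206 to 0.911). With the replicate block all 15 genes passed. The part of library quality in these differences was not tested.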

How the results depend on the processing

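The count of 2707 genes (1351 higher, 1356 lower) rose with the replicate block, which pairs same-numbered libraries, to 4639 (2040 and 2599), and with all 12 libraries in the fit to 5236 (2943 and 2293). It fell with the length correction to 1350 (648 and 702); with length correction and block the lower genes numbered 2157. Library size alone gave 784 higher genes, and a share of 33.9% higher among calls where TMM gave 49.9%, with a median log2 change of all genes of -0.03. Leaving out 1 library gave 14 to 2363 genes, 5 to 1073 higher and 9 to 1290 lower, with 2 libraries in 1 group. The interaction count of 772 became 1352 with DESeq2, 479 with no filter, 1937 with the replicate block, 134 with the length correction and 161 to 1607 without 1 library. The causes were not tested.

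With the block no named gene lost its call, and PAB4 and GSTF12 gained one. With all 12 libraries in the fit TOR, EIF4A1, PAB4 and LHY gained one and H3c lost it. Genes that had not passed, or in SAB's case passed, changed sign as follows. With the length correction, and in brackets with the block too, the log2 changes were -0.17 (-0.17) for EIF4G, -0.0062 (-0.0033) for eIFiso4G1, 0.0084 (0.0084) for RPL18, 0.037 (0.071) for TCH2, 0.069 (0.068) for CAF1a, -0.05 (-0.059) for SUC2, -0.088 (-0.088) for TOC1, -0.053 (-0.053) for TOR, -0.059 (-0.059) for ECA3, -0.0003 (-0.0008) for SAB and 0.013 (0.013) for UBC28. With library size alone they were -0.0013 for EIF4E1B and -0.0003 for SUC2. Without 1 library the log2 change ran from -0.028 to 0.048 for EIF4E1B, -0.021 to 0.10 for EIFISO4E (LSP1), -0.024 to 0.13 for SAC52, -0.32 to 0.091 for TCH2, -0.12 to 0.064 for CAF1a, -0.068 to 0.17 for TT4, -0.037 to 0.14 for SUC2, -0.23 to 0.081 for GI and -0.18 to 0.0004 for UBC8. On simulated counts, where few genes were changed, changes of 0.5 on the log2 scale were mostly missed. In the data smaller changes, such as 0.28 for FPA, passed, so that share does not carry over. A gene that missed is still not shown to be unchanged.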
